A study of Mus musculus with 4 samples.

Results

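Plasmacytoid dendritic cells (pDC) from mouse B16-F10 melanoma are described here as single-cell transcriptomes from 4 libraries. They were 429 of 26882 barcodes that passed the cell filter of at least 500 genes and at most 10% mitochondrial UMIs (unique molecular identifiers, each one captured transcript). A barcode was taken as a pDC when it held at least 3 UMIs of Siglech, at least 1 UMI of Ccr9, Cox6a2, Klk1 and Ly6d together, at most 2 UMIs of Ccr7, at most 1 UMI of Xcr1 and Clec9a together, and under 5 UMIs of C1qa, C1qb and C1qc per 10000. Because measured values chose the cells, levels of these genes are a description.

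The libraries came from C57BL/6 mice that carried subcutaneous B16-F10 tumors, started from 500000 cells of this melanoma line, and that received adenovirus into the tumor on day 12. Ad-MEM40 is named ISF35 in the treatment label, a virus that carries a membrane-bound CD40 ligand; Ad-mIFNB carries mouse interferon beta; Ad-COMBO tumors received both; Ad-Null is the virus without a transgene. Each library pooled 3 similarly treated tumors, dissociated with collagenase and DNase and sorted for CD11c and MHC-II protein, so a pDC that lacked either protein was not sampled. With 1 library per treatment there is no replicate and no test of a treatment; ratios compare libraries, and all intervals are exact 95% intervals that cover counting error only.

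pDC recognise nucleic acids in endosomes through Toll-like receptors 7 and 9 and are known for secreting type I interferon in bursts. The transcription factor TCF4 establishes and keeps their identity, and interferon that binds their own receptor raises IRF7, which strengthens further interferon production. Within tumors, pDC are often described as poor interferon producers, and they carry less MHC class II than conventional dendritic cells.

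The libraries gave 179 pDC in Ad-MEM40, 31 in Ad-mIFNB, 18 in Ad-COMBO and 201 in Ad-Null. As a share of filtered barcodes this was 1.14% in Ad-MEM40 (Clopper-Pearson interval 0.983 to 1.32%), 1.71% in Ad-mIFNB (1.17 to 2.42%), 2.68% in Ad-COMBO (1.60 to 4.21%) and 2.30% in Ad-Null (1.99 to 2.63%). The share was lowest in Ad-MEM40, where its interval did not overlap that of Ad-Null, while the intervals of Ad-mIFNB and Ad-COMBO overlapped that of Ad-Null. A share of sorted barcodes does not tell fewer pDC from more of the other sorted cells. Median UMIs per pDC were 6193 in Ad-MEM40, 10947 in Ad-mIFNB, 10263 in Ad-COMBO and 9607 in Ad-Null, so the Ad-MEM40 cells were the shallowest. Barcodes with at least 2000 UMIs were also thinned to 2000 UMIs, with 1 UMI of Siglech needed. Of these barcodes, pDC were 1.05% in Ad-MEM40, 2.43% in Ad-mIFNB, 2.94% in Ad-COMBO and 2.23% in Ad-Null, again lowest in Ad-MEM40. The UMI limits on Ccr7 and on Xcr1 and Clec9a were unchanged and so were looser at this depth. The C1q limit then allowed no UMI at all, so depth was not the only thing that changed.

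**Figure D1:**
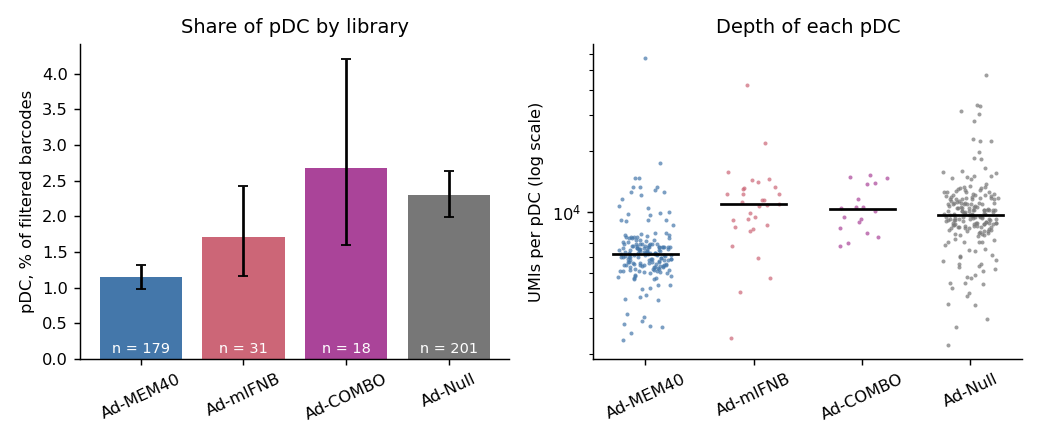
Left, pDC as a percentage of filtered barcodes in each library with exact 95% binomial intervals, n being the number of pDC. Right, UMIs of each pDC on a log scale with the median as a line; the Ad-MEM40 cells had the lowest share (1.14%) and the lowest median depth (6193 UMIs).

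The limits on other cells' genes also shaped these shares. Barcodes with at least 3 Siglech UMIs were 264 in Ad-MEM40, 59 in Ad-mIFNB, 26 in Ad-COMBO and 326 in Ad-Null, and the other limits removed 32.2% of them in Ad-MEM40, 47.5% in Ad-mIFNB, 30.8% in Ad-COMBO and 38.3% in Ad-Null. The limit on Xcr1 and Clec9a, the markers of type 1 conventional dendritic cells, was failed by 26 of them in Ad-MEM40, 20 in Ad-mIFNB, 4 in Ad-COMBO and 80 in Ad-Null. Among those, 15 in Ad-MEM40, 16 in Ad-mIFNB, 3 in Ad-COMBO and 52 in Ad-Null had no Xcr1 UMI at all. With Clec9a, which mouse pDC can also transcribe, left out of the rule, the share was 2.54% in Ad-mIFNB and 2.88% in Ad-Null. Without the C1q limit the Ad-MEM40 share was 1.43%. At the edge of the rule, pDC with exactly 3 Siglech UMIs numbered 8 in Ad-MEM40, 3 in Ad-mIFNB, 0 in Ad-COMBO and 6 in Ad-Null, and their median load on 40 other pDC genes was 221 UMIs per 10000 in Ad-MEM40, 258 in Ad-mIFNB and 148 in Ad-Null. Just outside, barcodes with 2 Siglech UMIs that met every other condition numbered 6 in Ad-MEM40 (median 202), 3 in Ad-mIFNB (212), 1 in Ad-COMBO (261) and 4 in Ad-Null (98.4). No barcode sequence of a pDC occurred among the pDC of another library, whereas 63 barcode sequences were shared between libraries among all filtered barcodes.

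Genes outside the rule carried the pDC label. The 40 further pDC genes made up a median of 210 UMIs per 10000 in pDC of Ad-MEM40, 244 in Ad-mIFNB, 245 in Ad-COMBO and 222 in Ad-Null, against 28.0 to 36.3 in all other barcodes of the same libraries. Tcf4, the factor that specifies pDC, stood at 1242 CPM (UMIs of the gene per 1000000 UMIs of all pDC in a library) in Ad-MEM40, 1586 in Ad-mIFNB, 1235 in Ad-COMBO and 1511 in Ad-Null, and at 88.6 to 123 CPM in the other barcodes. Irf8, a factor shared with type 1 conventional dendritic cells, stood at 2390 CPM in Ad-MEM40, 2644 in Ad-mIFNB, 2533 in Ad-COMBO and 2360 in Ad-Null. Runx2, needed for pDC to leave the bone marrow, stood at 486 CPM in Ad-MEM40, 529 in Ad-mIFNB, 373 in Ad-COMBO and 473 in Ad-Null. Each of these 3 factors differed by less than 2-fold between libraries. Zbtb46, a factor of conventional dendritic cells, had 5 UMIs in the pDC of Ad-MEM40, 0 in Ad-mIFNB, 0 in Ad-COMBO and 17 in Ad-Null, while the other barcodes held 21.8 to 40.7 CPM. Id2, the antagonist of TCF4, was at 62.1 CPM in Ad-MEM40, 94.6 in Ad-mIFNB, 131 in Ad-COMBO and 55.9 in Ad-Null, all below the 313 to 528 CPM of the other barcodes. The defining T and B cell genes Cd3e, Cd3d, Trac, Ms4a1 and Cd79a had 0 UMIs in the pDC of every library. Of 9 B cell markers, 6 were at 0 in Ad-MEM40 pDC, 6 in Ad-mIFNB, 8 in Ad-COMBO and 7 in Ad-Null; summed, they stood at 46.6 CPM in Ad-MEM40, 36.2 in Ad-mIFNB, 31.5 in Ad-COMBO and 42.2 in Ad-Null, and at 6.41 to 9.06 in the other barcodes. Of 10 T or NK cell markers, 8 were at 0 in Ad-MEM40, 8 in Ad-mIFNB, 8 in Ad-COMBO and 6 in Ad-Null. Summed, they stood at 143 CPM in Ad-MEM40, 100.2 in Ad-mIFNB, 73.6 in Ad-COMBO and 144 in Ad-Null, and at 113 to 193 in the other barcodes. Summed type 1 conventional dendritic cell markers stood at 121 to 370 CPM in pDC and 1371 to 2696 in the other barcodes. Type 2 markers were nearer, at 273 to 645 CPM in pDC and 620 to 1176 in the other barcodes. Mature dendritic cell markers stood at 252 to 479 CPM in pDC and 694 to 1635 in the other barcodes. Summed over 6 endothelial markers, pDC were higher, at 183 to 510 CPM against 39.9 to 110 in the other barcodes.

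Several of the leading genes in Ad-Null pDC are better known from lymphocytes, muscle or glands. Cd8b1, the CD8 beta chain, was at 322 CPM in Ad-MEM40, 420 in Ad-mIFNB, 1172 in Ad-COMBO and 348 in Ad-Null, and at 1.29 to 5.34 CPM in the other barcodes. Thinned to 2000 UMIs, a Cd8b1 UMI was found in 35.8% of pDC in Ad-MEM40, 45.2% in Ad-mIFNB, 77.8% in Ad-COMBO and 36.8% in Ad-Null, against 0% of Ad-Null barcodes that held Xcr1 or Clec9a and no Siglech; before thinning the pDC share in Ad-Null was 58.2% at a median of 9607 UMIs and that of the Xcr1 or Clec9a barcodes 0.267% at 21796.5. Cd4, the coreceptor of helper T cells, was at 330 CPM in Ad-MEM40, 476 in Ad-mIFNB, 604 in Ad-COMBO and 426 in Ad-Null. The muscle phosphoglycerate mutase Pgam2 was at 194 CPM in Ad-MEM40, 287 in Ad-mIFNB, 951 in Ad-COMBO and 242 in Ad-Null, and the glucocorticoid-activating enzyme Hsd11b1 at 172 CPM in Ad-MEM40, 303 in Ad-mIFNB, 462 in Ad-COMBO and 238 in Ad-Null. Cd8b1, Pgam2 and Hsd11b1 were highest in Ad-COMBO, whose values rest on 18 cells. Mzb1, a chaperone of antibody-secreting cells, was at 223 CPM in Ad-MEM40, 175 in Ad-mIFNB, 273 in Ad-COMBO and 221 in Ad-Null. The inhibitory receptor Lag3 was at 221 CPM in Ad-MEM40, 403 in Ad-mIFNB, 552 in Ad-COMBO and 271 in Ad-Null.

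**Figure D2:**
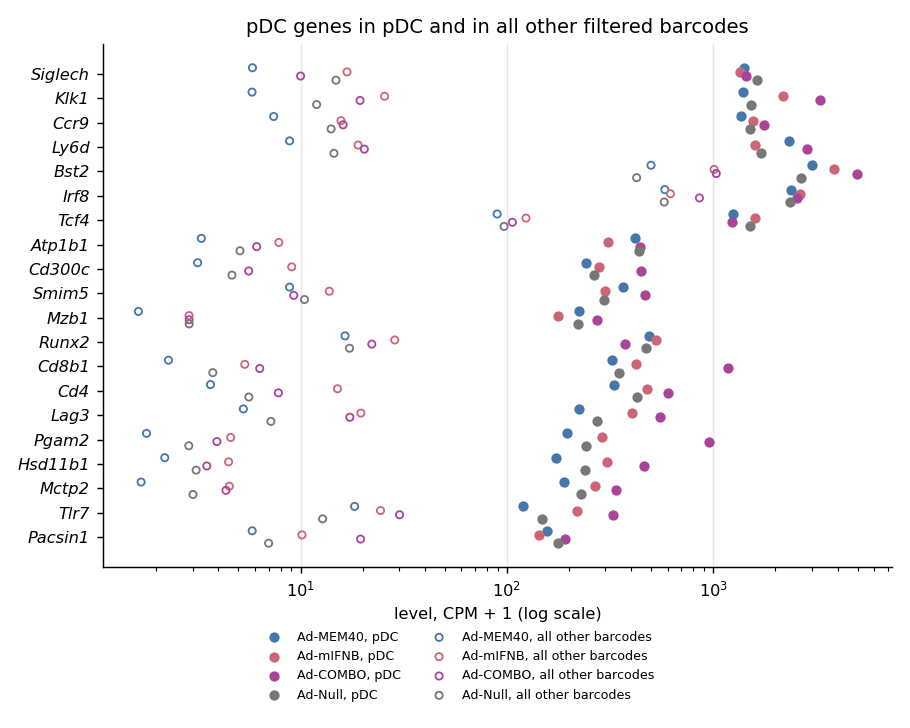
Levels (CPM + 1, log scale) of 20 pDC genes in pDC (filled) and in all other filtered barcodes (open) of each library; Siglech, Klk1, Ccr9 and Ly6d helped to choose the cells. Cd8b1 lies between 322 and 1172 CPM in pDC and between 1.29 and 5.34 CPM in the other barcodes.

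Some barcodes chosen by the rule also held transcripts of other cells. Taking more than 40 UMIs per 10000 on marker genes of other cell types as the mark, these mixed barcodes numbered 20 in Ad-MEM40, 1 in Ad-mIFNB, 0 in Ad-COMBO and 23 in Ad-Null. In Ad-MEM40, 1 barcode of 56997 UMIs held 1031 of the 1114 UMIs of 10 melanoma genes found in all its pDC. In Ad-mIFNB, 1 barcode of 41918 UMIs held 685 of the 790 UMIs of 19 macrophage and monocyte genes. Without the mixed barcodes the summed melanoma genes were at 71.5 CPM in Ad-MEM40 pDC and 42.1 in Ad-Null pDC, against 910 CPM in Ad-MEM40 and 59.7 in Ad-Null with them. The monocyte genes were at 88.2 CPM in Ad-mIFNB pDC and 151 in Ad-Null pDC without them, against 1684 CPM in Ad-mIFNB and 581 in Ad-Null with them. These marker levels fall by construction; the main gene lists below are given with and without the mixed barcodes. Scrublet called 17 pDC of Ad-MEM40, 0 of Ad-mIFNB, 1 of Ad-COMBO and 17 of Ad-Null as doublets, and none was removed for it. These counts cannot be compared between libraries, because its automatic threshold was used in Ad-mIFNB and Ad-COMBO, which called 0.166% and 0.447% of their barcodes, and the highest scores up to the expected share in Ad-MEM40 and Ad-Null, which called 12.5% and 7.0%.

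Type I interferon response genes were higher in Ad-mIFNB pDC than in Ad-Null pDC. A gene counts as higher or lower when its ratio of CPM + 5 passes 2-fold. Of 3315 genes with at least 50 CPM in 1 library and 50 UMIs over both, 111 were higher (3.35%) and 50 lower (1.51%), with a median log2 ratio of -0.01. Without the mixed barcodes 91 of 3252 genes were higher and 42 lower. Of the 111 and 50 genes, 73 and 33 still had a ratio past 2-fold, whatever their level or UMI total. Gene lists were described over genes with at least 20 UMIs in both libraries together, where 2.84% of 7910 genes were higher and 4.31% lower and the median log2 ratio was -0.04. Of 57 measured type I interferon response genes, 32 were higher and 0 lower, and their median log2 ratio was 1.08. Without the mixed barcodes 32 of 51 were higher with a median of 1.31, and 31 of the first 32 genes still had a ratio past 2-fold, whatever their UMI total. The count of 0 lower holds for this list only. The chemokine gene Cxcl10 and the interferon-inducible gene Ifi205 stand outside it, with log2 ratios of -3.38 and -1.51. Without the mixed barcodes these were -0.99 and -0.03. Ifitm1, lower in Ad-mIFNB and described below, was not on the list either.

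Slfn5, a Schlafen family gene induced by interferon, had 105 CPM in Ad-MEM40 (interval 87.2 to 124), 596 in Ad-mIFNB (518 to 681), 368 in Ad-COMBO (287 to 465) and 89.1 in Ad-Null (76.8 to 103). Both libraries with the interferon beta virus were above both without it, and their intervals did not overlap. The Ad-mIFNB level was 6.69 times that of Ad-Null (5.47 to 8.18), and 9.04 times (7.01 to 11.7) without the mixed barcodes. Ifit2, whose protein binds viral RNA and restrains translation, was at 39.2 CPM in Ad-MEM40, 317 in Ad-mIFNB, 704 in Ad-COMBO and 51.2 in Ad-Null, 6.20 times the Ad-Null level in Ad-mIFNB (4.72 to 8.14); 69 of the 134 Ad-COMBO UMIs came from 1 cell. Thinned to 2000 UMIs, Slfn5 was found in 58.1% and Ifit2 in 45.2% of Ad-mIFNB pDC, against 11.9% and 7.96% of Ad-Null pDC; unthinned these were 83.9% and 77.4%, against 29.4% and 19.9%. Interferon response genes are not confined to pDC: barcodes with C1q and no Siglech had Slfn5 in 51.2% of Ad-mIFNB and 27.6% of Ad-Null cells after thinning, at median depths of 19285 and 18292.5 UMIs.

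Other antiviral genes were also higher in both libraries with the interferon beta virus. Isg15, a ubiquitin-like modifier, was at 311 CPM in Ad-MEM40, 687 in Ad-mIFNB, 1083 in Ad-COMBO and 192 in Ad-Null, and was 3.58 times as high in Ad-mIFNB as in Ad-Null (3.05 to 4.21). Rsad2, which encodes viperin, was at 54.7 CPM in Ad-MEM40, 337 in Ad-mIFNB, 405 in Ad-COMBO and 62.5 in Ad-Null, a log2 ratio of 2.34 for Ad-mIFNB. The 1 mixed barcode of Ad-mIFNB held 63 of its 121 UMIs; without the mixed barcodes Rsad2 was at 183 CPM in Ad-mIFNB and 42.1 in Ad-Null, a log2 ratio of 2.00. Ifi44 was at 62.9 CPM in Ad-MEM40, 237 in Ad-mIFNB, 294 in Ad-COMBO and 48.8 in Ad-Null. For Isg15, Rsad2 and Ifi44 the Ad-mIFNB and Ad-COMBO levels exceeded both other libraries. Usp18, the brake on the interferon receptor, was at 36.8 CPM in Ad-MEM40, 150 in Ad-mIFNB, 205 in Ad-COMBO and 47.4 in Ad-Null, and Ly6c2, a surface protein of pDC and monocytes, at 1972 CPM in Ad-MEM40, 4121 in Ad-mIFNB, 5707 in Ad-COMBO and 1644 in Ad-Null. The Ly6c2 log2 ratio of Ad-mIFNB over Ad-Null was 1.32, and 1.27 without the mixed barcodes; its reads may be shared with the near-identical gene Ly6c1. Bst2, the surface protein tetherin that pDC carry without stimulation, was at 3011 CPM in Ad-MEM40, 3840 in Ad-mIFNB, 4945 in Ad-COMBO and 2659 in Ad-Null; its Ad-mIFNB ratio of 1.44 (1.36 to 1.53) stayed under 2-fold. Ly6e, another interferon-induced surface protein, was nearly level at 1903 CPM in Ad-MEM40, 2056 in Ad-mIFNB, 2396 in Ad-COMBO and 1971 in Ad-Null.

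Promoters of 4 of these genes are shown because they range from Slfn5 to Bst2 in response and each holds the core of the interferon-stimulated response element. The sequences are the 160 bases before the start in RefSeq on GRCm38.p6, each 5′ to 3′ on the gene's own strand; capitals mark GAAANN followed by GAAA, or the same element on the other strand, TTTCNN followed by TTTC, and matches may overlap.
Slfn5 (chr11:82951942-82952101, plus strand): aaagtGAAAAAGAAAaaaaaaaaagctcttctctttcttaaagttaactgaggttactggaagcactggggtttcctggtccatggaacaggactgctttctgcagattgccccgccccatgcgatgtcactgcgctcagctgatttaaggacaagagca
Rsad2 (chr12:26456453-26456612, minus strand): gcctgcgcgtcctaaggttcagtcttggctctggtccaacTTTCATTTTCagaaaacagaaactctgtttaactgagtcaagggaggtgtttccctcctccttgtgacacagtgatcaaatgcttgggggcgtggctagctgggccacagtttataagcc
Isg15 (chr4:156200819-156200978, minus strand): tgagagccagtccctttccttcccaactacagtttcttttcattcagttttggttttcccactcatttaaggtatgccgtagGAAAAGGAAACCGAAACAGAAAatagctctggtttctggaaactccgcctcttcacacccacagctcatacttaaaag
Bst2 (chr8:71537473-71537632, minus strand): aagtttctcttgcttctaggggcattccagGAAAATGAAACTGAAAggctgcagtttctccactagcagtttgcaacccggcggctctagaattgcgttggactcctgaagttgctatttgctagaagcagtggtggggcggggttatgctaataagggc
The match lies at -155 from the start in Slfn5 and at -120 in Rsad2. Overlapping matches begin at -78, -72 and -66 in Isg15 and at -130 and -124 in Bst2. Over RefSeq promoters of 250 bases before to 50 after the start, 1131 of 32851 (3.44%) held a match on either strand. Among promoters of the measured interferon response genes 22 of 55 did, and 19 of the 44 genes that matched by symbol had 1 or more such promoters. By promoter, the share was 11 of 35 for genes at least 2-fold higher in Ad-mIFNB pDC and 11 of 20 for those under 2-fold. By gene, it was 10 of 27 for the higher genes and 9 of 17 for those under 2-fold.

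Summed per cell, the 63 interferon response genes in the files took a median of 137 UMIs per 10000 in Ad-MEM40 pDC (quartiles 113 and 169), 232 in Ad-mIFNB (192 and 282), 284 in Ad-COMBO (219 and 401) and 125 in Ad-Null (105 and 160). The lower quartile of Ad-mIFNB pDC lay above the upper quartile of Ad-Null pDC. The ranges overlapped, since Ad-mIFNB pDC spanned 103 to 511, against 62.8 to 319 for Ad-Null pDC. Without mixed barcodes the medians were 227 in Ad-mIFNB and 125 in Ad-Null.

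**Figure D3:**
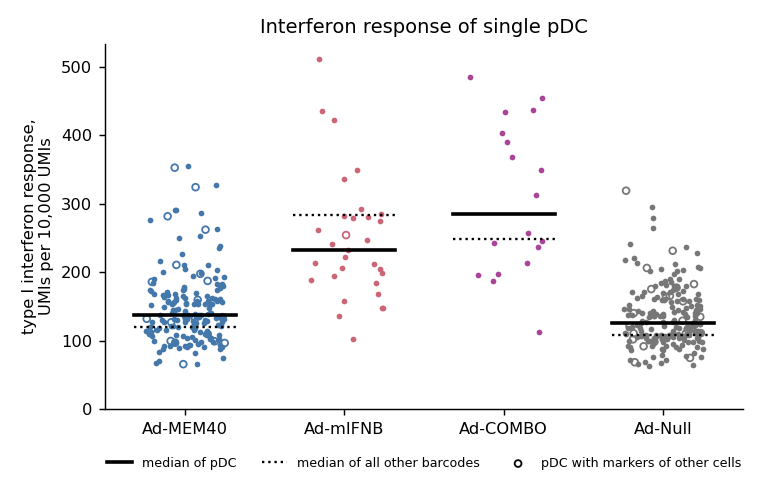
UMIs of 63 type I interferon response genes per 10000 UMIs in each pDC (points), with the median of pDC (solid line) and of all other barcodes (dotted line) in each library; open points are mixed barcodes. Ad-mIFNB pDC have a median of 232, below the 283 of the other barcodes, and Ad-Null pDC a median of 125, above their 108.

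The other sorted cells of the same libraries showed the interferon response too. Over the 57 genes the median log2 ratio of Ad-mIFNB over Ad-Null was 1.08 in pDC and 1.37 in all other barcodes, and 45 of the 57 had the smaller ratio in pDC. The median over 51 genes without the mixed barcodes was 1.31 in pDC and 1.37 in the other barcodes, and 33 of the 51 had the smaller ratio in pDC. Ly6c2 had a log2 ratio of 1.32 in pDC and 3.03 in the other barcodes, whose levels were 688 CPM in Ad-mIFNB and 79.8 in Ad-Null. Isg15 reached 687 CPM in Ad-mIFNB pDC and 2315 CPM in the other Ad-mIFNB barcodes. Slfn5 was among the 12 genes with the larger ratio in pDC, 2.67 against 1.45; it stood at 89.1 CPM in Ad-Null pDC and 242 CPM in the other Ad-Null barcodes. Irf9, part of the complex that binds the response element, had log2 ratios of 1.20 in pDC and 0.80 in the other barcodes. The other barcodes are a mixture whose makeup differed between libraries, and the difference between pDC and other cells was not tested.

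**Figure D4:**
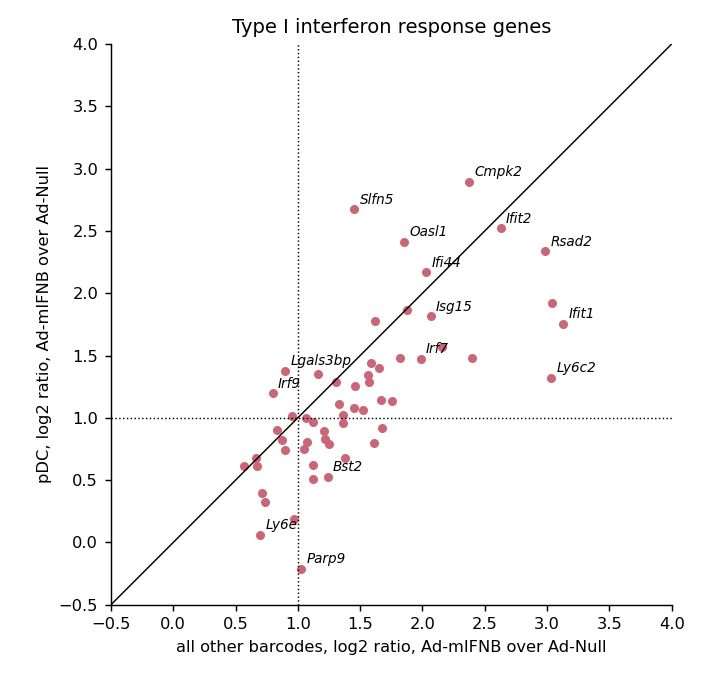
Log2 ratio of CPM + 5, Ad-mIFNB over Ad-Null, for 57 type I interferon response genes in all pDC, mixed barcodes included (vertical axis) and in all other filtered barcodes (horizontal axis); dotted lines mark 2-fold and the solid line equal ratios. Most genes, 45 of 57, lie below the line, and Slfn5 and Irf9 lie above it.

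Irf7, the factor that drives interferon alpha genes, was at 355 CPM in Ad-MEM40, 1010 in Ad-mIFNB, 1288 in Ad-COMBO and 360 in Ad-Null, 2.80 times the Ad-Null level in Ad-mIFNB (2.47 to 3.18); leaving out the mixed barcodes gave the same log2 ratio of 1.47. Tlr7, the endosomal receptor of single-stranded RNA, was at 118 CPM in Ad-MEM40, 217 in Ad-mIFNB, 326 in Ad-COMBO and 147 in Ad-Null, a ratio of 1.47 for Ad-mIFNB (1.13 to 1.89). Tlr9, the receptor of unmethylated DNA, had only 12 UMIs in the pDC of Ad-MEM40, 5 in Ad-mIFNB, 6 in Ad-COMBO and 24 in Ad-Null, too few to compare. Unc93b1, which carries both receptors to endosomes, was at 444 CPM in Ad-MEM40, 484 in Ad-mIFNB, 594 in Ad-COMBO and 431 in Ad-Null. Of 23 measured endosomal sensing genes 2 were higher in Ad-mIFNB, Irf7 and Spp1, and 0 lower, and Spp1 owed 33 of its 35 UMIs to 1 mixed barcode. Their median log2 ratio was 0.21, and without the mixed barcodes 1 of 22 was higher with a median of 0.13. Of 10 measured cytosolic sensing genes 2 were higher, the RNA sensors Ifih1 and Ddx58, and 0 lower, with a median of 0.56, or 1 of 9 with 0.66 without the mixed barcodes. Ifih1 was at 37.6 CPM in Ad-MEM40, 122 in Ad-mIFNB, 173 in Ad-COMBO and 52.6 in Ad-Null. The receptor chains were nearly level: Ifnar1 at 197 CPM in Ad-MEM40, 245 in Ad-mIFNB, 284 in Ad-COMBO and 227 in Ad-Null and Ifnar2 at 448 CPM in Ad-MEM40, 442 in Ad-mIFNB, 531 in Ad-COMBO and 396 in Ad-Null.

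Among genes of antigen presentation, of 23 measured MHC class I pathway genes 0 were higher and 0 lower in Ad-mIFNB, with a median log2 ratio of 0.16, or 0.30 without mixed barcodes. Per cell the class I genes took a median of 163 UMIs per 10000 in Ad-MEM40, 215 in Ad-mIFNB, 260 in Ad-COMBO and 166 in Ad-Null. The nonclassical gene H2-T23 was at 609 CPM in Ad-MEM40, 1361 in Ad-mIFNB, 1608 in Ad-COMBO and 790 in Ad-Null, a ratio of 1.72 for Ad-mIFNB (1.55 to 1.91). B2m, the shared light chain, was at 2830 CPM in Ad-MEM40, 4096 in Ad-mIFNB, 4845 in Ad-COMBO and 3160 in Ad-Null. The MHC class II genes took a median of 154 UMIs per 10000 in Ad-MEM40 pDC, 144 in Ad-mIFNB, 106 in Ad-COMBO and 145 in Ad-Null. The other barcodes of each library were higher, with 316 in Ad-MEM40, 376 in Ad-mIFNB, 265 in Ad-COMBO and 369 in Ad-Null. The sort itself required MHC-II. Of 13 measured class II pathway genes 0 were higher and 0 lower in Ad-mIFNB, with a median log2 ratio of -0.32; without mixed barcodes 1 was higher and the median was 0.09. Costimulatory genes were sparse, with 18 UMIs of Cd40 in Ad-MEM40 pDC, 4 in Ad-mIFNB, 5 in Ad-COMBO and 35 in Ad-Null. Cd80 had 10 UMIs in Ad-MEM40 pDC, 2 in Ad-mIFNB, 1 in Ad-COMBO and 24 in Ad-Null.

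Genes outside the interferon response list also passed 2-fold in Ad-mIFNB pDC with and without the mixed barcodes. Of all 73 higher genes that stayed past 2-fold, at most 31 were on that list. Only a few of the others are described here. Dusp1, a phosphatase that ends kinase signalling, was at 264 CPM in Ad-MEM40, 512 in Ad-mIFNB, 552 in Ad-COMBO and 227 in Ad-Null, and Ltb, which encodes lymphotoxin beta, at 61.3 CPM in Ad-MEM40, 111 in Ad-mIFNB, 47.3 in Ad-COMBO and 47.8 in Ad-Null. Dusp1 was highest in the libraries with the interferon beta virus, and Ltb was highest in Ad-mIFNB. Dusp1 is also on the list of dissociation and heat stress genes, which can respond to tissue digestion, as 1 of its 2 higher genes. Apod, a lipid carrier, was at 34.3 CPM in Ad-MEM40, 186 in Ad-mIFNB, 741 in Ad-COMBO and 50.7 in Ad-Null, but 34 of the 67 Ad-mIFNB UMIs and 71 of the 141 Ad-COMBO UMIs came from 1 cell each. In the other barcodes Apod was at 108 CPM in Ad-mIFNB and 10.95 in Ad-Null. Its log2 ratio was 2.83 there and 1.78 in pDC. Kdr, the receptor of vascular endothelial growth factor, was at 51.5 CPM in Ad-MEM40, 136 in Ad-mIFNB, 336 in Ad-COMBO and 59.7 in Ad-Null and was found in 12 of 31 Ad-mIFNB pDC and 58 of 201 Ad-Null pDC. Apod, Kdr, Dusp1 and Ltb were picked after their values were seen.

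By the rule of largest ratios, the 15 leading genes in Ad-mIFNB were Mmp12, Arg1, Ccl9, Il1rn, Cd63, Adam8, Ccl6, Lyz2, AA467197, Cd9, Hilpda, Clec4n, Spp1, Slfn5 and Gpnmb. Many are macrophage genes, and 1 mixed barcode held all 423 UMIs of the elastase gene Mmp12, all 57 of the arginase gene Arg1 and 512 of the 516 of the lysozyme gene Lyz2. The 10 lowest were Ifitm1, Il1b, Hist1h2ap, Cxcl9, Cxcl10, Hist1h2ae, Hist1h3c, Cd209a, Hist1h1b and Egr1. Ifitm1, an antiviral membrane protein, had 2 UMIs in Ad-mIFNB pDC and 655 in Ad-Null pDC, and the cytokine gene Il1b had 1 in Ad-mIFNB and 355 in Ad-Null. Of the Ad-Null totals, 107 UMIs of Ifitm1, 103 of Il1b and 58 of the type 2 dendritic cell marker Cd209a lay in 1 cell each. Ad-Null pDC without the mixed barcodes held 61 UMIs of Ifitm1, 50 of Il1b and 8 of Cd209a, and the log2 ratios were -1.88 for Ifitm1, -2.10 for Il1b and 0.20 for Cd209a, so Cd209a was no longer lower.

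Few genes passed 2-fold in Ad-MEM40 pDC. Of 3165 genes 21 were higher (0.664%) and 10 lower (0.316%). Without the mixed barcodes 6 of 3129 were higher and 3 lower. Only 2 and 2 of the first sets still had a ratio past 2-fold, whatever their level or UMI total. The 6 higher genes without the mixed barcodes were Cxcl1, Ccl2, Bcl2a1b, Marcks, Il1b and Cdkn1a. When the top cell of each gene was left out of all pDC instead, 3 genes were higher, Hspa1a, Ccl5 and Hspa1b. Over genes with at least 20 UMIs, 0.876% of 8565 were higher and 0.49% lower, with a median log2 ratio of 0.01. Of the 57 measured interferon response genes 1 was higher, the exonuclease gene Isg20, and 0 lower, with a median log2 ratio of 0.02; without the mixed barcodes 0 were higher. Isg15 in Ad-MEM40 pDC was at 1.62 times the Ad-Null level (1.41 to 1.87), and 53 of its 381 Ad-MEM40 UMIs came from 1 cell. With the top cell of each library left out its log2 ratio was 0.61. Without the mixed barcodes it was at 223 CPM in Ad-MEM40 and 119 in Ad-Null, a log2 ratio of 0.88.

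**Figure D5:**
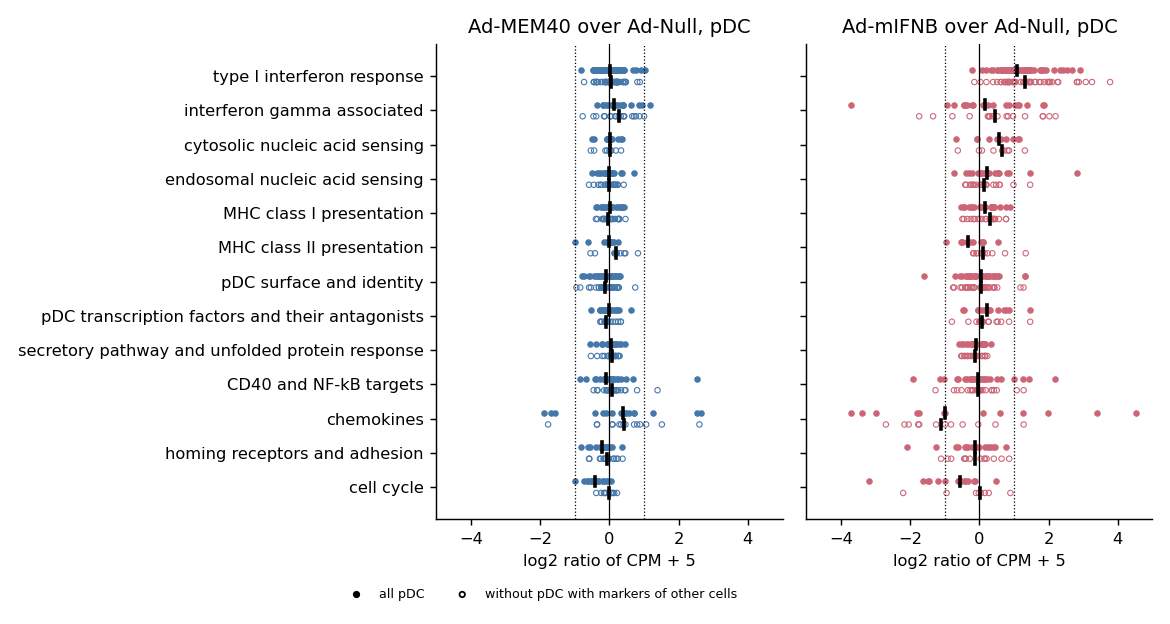
Log2 ratio of CPM + 5 for each measured gene of the gene lists in pDC, Ad-MEM40 over Ad-Null (left) and Ad-mIFNB over Ad-Null (right), with all pDC (filled) and without mixed barcodes (open); black ticks are medians and dotted lines 2-fold. The interferon response list has a median of 1.08 in Ad-mIFNB and 0.02 in Ad-MEM40.

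The 15 leading genes in Ad-MEM40 were Ptgds, Cd63, Pmel, Mlana, Tyrp1, Dct, Syt4, Gpnmb, Ccl5, Retnla, Mt1, Hspa1a, Chchd10, Ifi27 and Apoe. A single mixed barcode held 188 of the 201 UMIs of the melanosome gene Pmel, and 8 of 9 measured melanoma genes were higher with the mixed barcodes in. Ccl5, a chemokine for T cells, had 129 of 206 UMIs in 1 cell. With the top cell of each library left out it was at 62.9 CPM in Ad-MEM40 and 22.7 in Ad-Null, a log2 ratio of 1.29. Without the mixed barcodes its log2 ratio was 0.80. The 10 lowest were Cd209a, Cxcl10, Il1r2, Dab2 and the histone genes Hist1h3c, Hist1h2ae, Hist1h2ap, Hist1h4d, Hist1h1b and Hist1h1e. Of 27 measured targets of CD40 and NF-kB signalling 1 was higher and 0 lower, with a median log2 ratio of -0.09, or 0.09 without the mixed barcodes. Of 16 measured maturation genes 0 were higher and 0 lower, with a median of -0.12, or 0.21 over 12 genes without the mixed barcodes, again with 0 higher and 0 lower. Cd86, a costimulatory ligand, was at 37.6 CPM in Ad-MEM40, 50.1 in Ad-mIFNB, 21.0 in Ad-COMBO and 45.5 in Ad-Null, and Cd40, the receptor of the ligand carried by this virus, at 14.7 CPM in Ad-MEM40, 11.1 in Ad-mIFNB, 26.3 in Ad-COMBO and 16.6 in Ad-Null. The neutrophil chemokine Cxcl1 was higher with and without the mixed barcodes, with 61 UMIs in Ad-MEM40 pDC and 8 in Ad-Null pDC, and 47 of the 61 came from 1 cell.

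Chemokines and cycling genes were uneven. Ccl4, a chemokine that attracts T cells and monocytes, was at 3135 CPM in Ad-MEM40, 4547 in Ad-mIFNB, 8797 in Ad-COMBO and 4221 in Ad-Null, against 725 to 2057 CPM in the other barcodes. Its relative Ccl3 was at 230 CPM in Ad-MEM40, 376 in Ad-mIFNB, 1067 in Ad-COMBO and 247 in Ad-Null. Ad-COMBO was highest for both. In Ad-mIFNB 4 of 13 measured chemokines were higher and 7 lower, and without the mixed barcodes 1 of 12 was higher and 6 were lower with a median log2 ratio of -1.12. The median over all pDC was negative too, but turned to 0.51 after thinning, 0.27 without called doublets and 0.19 when Clec9a was not used. Cell cycle genes had a median log2 ratio of -0.41 in Ad-MEM40 and -0.56 in Ad-mIFNB; without the mixed barcodes it was -0.02 in Ad-MEM40 and 0.01 in Ad-mIFNB. pDC with at least 2 UMIs of the proliferation genes Mki67 and Top2a were 11 of 179 in Ad-MEM40, 1 of 31 in Ad-mIFNB, 1 of 18 in Ad-COMBO and 11 of 201 in Ad-Null. Genes of the secretory pathway took a median of 101 UMIs per 10000 in Ad-MEM40 pDC, 95.4 in Ad-mIFNB, 110 in Ad-COMBO and 96.4 in Ad-Null, against 44.1 to 53.5 in the other barcodes.

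Interferon transcripts themselves were almost absent from pDC outside 1 cell. UMIs of type I and III interferon genes numbered 1 in Ad-MEM40 pDC, 6 in Ad-mIFNB, 87 in Ad-COMBO and 3 in Ad-Null. All 87 lay in 1 Ad-COMBO cell of 7885 UMIs, with 42 of Ifna2, 17 of Ifnb1, 15 of Ifna4, 10 of Ifna16, 2 of Ifna1 and 1 of Ifna6. That cell had 4 UMIs of Siglech, 3 of Ly6d, 3 of Irf7 and 0 of Ccr9, Cox6a2, Klk1, Cd8b1 and Tlr7. It also had 31 UMIs of Bst2, 19 of Tcf4 and 15 of Irf8, with 1 of Clec9a and 0 of Xcr1, Ccr7 and C1qa. Its interferon response genes took 486 UMIs per 10000. It was not a mixed barcode, but it was the Ad-COMBO pDC that Scrublet called a doublet. Ifnb1 had 0 UMIs in Ad-MEM40, Ad-mIFNB and Ad-Null pDC, which allows up to 2.45 CPM in Ad-MEM40, 8.35 in Ad-mIFNB and 1.42 in Ad-Null (3 UMIs). The paralogous interferon alpha genes are nearly identical, so reads may be assigned between them or dropped. Ad-mIFNB and Ad-COMBO tumors received a virus with mouse interferon beta. Ifnb1 UMIs there may therefore also come from the virus, which was not tested.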

How the data were processed

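Counts are UMIs per gene and barcode in the 4 matrices as the authors deposited them, whole numbers per the file headers. Per the submitters' processing notes, Cell Ranger 3.0, mm10 and Seurat 4.0 were used, but version 6.0.0 stands in the file headers. Cells passed at 500 genes or more and at most 10% mitochondrial UMIs. UMIs were summed over the pDC of each library (1224165 in Ad-MEM40, 359362 in Ad-mIFNB, 190283 in Ad-COMBO and 2110992 in Ad-Null) and given as CPM with exact Poisson intervals; ratios used a pseudocount of 5 CPM, and fold intervals the exact conditional binomial. Genes at 50 CPM in 1 library and 50 UMIs over both were counted, list genes at 20 UMIs. The 15 highest and 10 lowest genes were named, leaving out mitochondrial, ribosomal protein, immunoglobulin and unnamed genes and those of the rule, besides list members and the 20 leading genes of Ad-Null pDC. The pDC rule and the lists were chosen with earlier results of these data known, and leaving out mixed barcodes was chosen after seeing the data. Of 593 list genes 587 were found. Python 3.11.15, numpy 2.4.6, scipy 1.17.1, pandas 2.3.3 and scanpy 1.11.5 (Scrublet) were used; intervals were tested on simulated data. With 1 library per treatment no test was run. Results for a few genes are not reported here.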

Additional observations from a re-analysis of the deposited data

Results flagged for a closer look

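Interferon transcripts lie outside the gene counts above. Ad-COMBO pDC held 87 UMIs of type I and III interferon genes, all in 1 cell, against 3 in Ad-Null pDC. Ad-mIFNB pDC held 6 UMIs of the type III gene Ifnl2, all in 1 cell, against 3 UMIs in 3 cells of Ad-Null.

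2 genes moved one way in pDC and the other way in all other barcodes, Ad-mIFNB over Ad-Null, and the difference was not tested. Cxcl10, a chemokine for activated T cells, had a log2 ratio of -3.38 in pDC and 1.12 in the other barcodes. It stood at 5.57 CPM in Ad-mIFNB pDC and 105 CPM in Ad-Null pDC, from 2 and 222 UMIs, and 140 of the 222 lay in 1 cell; without mixed barcodes the log2 ratio was -0.99. Ifi205, an interferon-inducible gene, had -1.51 in pDC and 1.08 in the other barcodes, from 6 UMIs in Ad-mIFNB pDC and 120 in Ad-Null pDC, 28 of them in 1 cell; without mixed barcodes it was -0.03.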

How the results depend on the processing

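The interferon response list in Ad-mIFNB pDC kept a positive median, 0.85 to 1.40 over the alternatives run. Counts of higher and lower genes depended on few cells. For Ad-MEM40 (21 higher, 10 lower) they were 123 and 51 without a filter on low genes, 5 and 5 with cells weighted equally, 33 and 3 without called doublets, 6 and 3 without mixed barcodes, 3 and 2 with the top cell of each gene left out, and 67 and 58 at 1.5-fold; thinning to 2000 UMIs gave 6 higher. For Ad-mIFNB (111 higher, 50 lower) they were 73 and 29 with a pseudocount of 20 CPM, 419 and 500 without a filter, 32 and 80 after thinning, 37 and 114 with the top cell of each gene left out, and 331 and 218 at 1.5-fold; 32 were lower without called doublets, 94 without the C1q limit and 26 with Clec9a not used. Leaving out the top cell weighs more on the smaller Ad-mIFNB library, where it moved the median of all genes to -0.21. Shares moved to 1.43% in Ad-MEM40 without the C1q limit, to 2.54% in Ad-mIFNB and 2.88% in Ad-Null with Clec9a not used, and to 2.43% in Ad-mIFNB under the thinned rule.

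Some log2 ratios changed sign, and the cause was not tested. In Ad-MEM40, without called doublets, Cd209a was 0.30 and Cxcl10 0.34. Without mixed barcodes, Ptgds was -0.18, Syt4 -0.086, Cd209a 0.55, Cxcl10 0.077, Hist1h1b 0.13 and Il1r2 0.42; with the top cell left out, Ptgds was -0.24 and Tyrp1 -0.18. In Ad-mIFNB, the chemokine median was 0.51 after thinning, 0.27 without called doublets and 0.19 with Clec9a not used. Without the mixed barcodes Mmp12 was -1.42, Arg1 -0.44, Ccl9 -1.25, Il1rn -0.97, Cd63 -0.78, Adam8 -0.27, Ccl6 -0.82, Lyz2 -2.05, Clec4n -0.78, Spp1 -0.11 and Cd209a 0.20. With the top cell left out Mmp12 was -1.53, Arg1 -0.36, Ccl9 -1.76, Il1rn -0.96, Cd63 -0.64, Adam8 -0.69, Ccl6 -1.42, Lyz2 -2.92, AA467197 -0.39, Clec4n -2.26, Spp1 -0.14 and Gpnmb -0.25. No paired analysis was possible because each treatment has 1 library.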

Other observations

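Genes of hypoxia and glycolysis, which rise in cells short of oxygen, showed 1 of 18 measured higher and 0 lower in Ad-mIFNB pDC against Ad-Null pDC, with a median log2 ratio of -0.13. Without the mixed barcodes 0 were higher and 5 lower, with a median of -0.58. In Ad-MEM40 pDC the same 18 genes had a median of 0.41, and -0.10 without the mixed barcodes, so this list changed sign with the mixed barcodes. Genes of dissociation and heat stress, which can respond to tissue digestion, had 2 of 17 higher and 2 lower in Ad-mIFNB, with a median of 0.22, and 2 of 17 higher and 0 lower in Ad-MEM40, with a median of 0.09. With the mixed barcodes left out 3 were higher and 1 lower in Ad-mIFNB, with a median of 0.28, and 0 were higher or lower in Ad-MEM40, with a median of 0.13. Of 16 genes of pDC energy metabolism 0 were higher or lower in both comparisons, with medians of -0.21 in Ad-mIFNB and 0.03 in Ad-MEM40. Leaving out the mixed barcodes gave 1 higher in Ad-mIFNB, with a median of -0.19, and 0 in Ad-MEM40, with a median of 0.01.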
